A study of Mus musculus with 5 samples.

Results

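The step from 200 to 250 mM sorbitol was described for mouse embryonic stem cells kept in leukaemia inhibitory factor (LIF) by setting the library grown at 250 mM sorbitol against the library grown at 200 mM. All barcodes with at least 500 detected genes were used, which gave 9985 barcodes at 200 mM and 10000 at 250 mM, together 19985 of the 50000 barcodes of the series. The cells were the line REX-1 RFP, which carries a red fluorescent protein under the Rex1 promoter (Rex1 is the older name of Zfp42). Both cultures received LIF and sorbitol for 72 h, so they differ by dose alone as far as the labels say, and whether the line is a single clone is not given in the sources used here. The other libraries of the series were NS (LIF, no sorbitol listed), ND (without LIF) and 300 mM sorbitol with LIF, and the labels do not spell out NS and ND. Each condition has 1 library, so no p-values are given. The ratios compare a pair of libraries rather than the doses as such, and batch and dose cannot be told apart. Barcodes of 1 library are not replicates and were summed.

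Sorbitol is a sugar alcohol that hardly crosses the cell membrane, so it raises the osmolarity of the medium and draws water out of the cell. Cells answer by taking up ions through transporters and, more slowly, by collecting small organic osmolytes such as taurine, myo-inositol and sorbitol itself, a programme in which the transcription factor Nfat5 and the kinase Sgk1 take part. Mouse embryonic stem cells in LIF hold a naive pluripotent state carried by Oct4, Sox2, Nanog, Esrrb and Kruppel-like factors, and Zfp42 is a widely used marker of that state. The question of the dose step is which of these programmes, and which genes of metabolism and stress, stand at another level when only the amount of sorbitol differs.

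The 2 libraries were close in depth. The median barcode held 888 unique molecular identifiers (UMIs) at 200 mM and 939 at 250 mM, in 582 and 625 genes, and the summed counts were 9218297 and 9766705 UMIs. Of 32285 genes listed, 8763 were compared, those with at least 10 CPM (UMIs of a gene scaled to a common library total) at either dose. Mitochondrial transcripts made up 5.61% of UMIs at 200 mM and 5.78% at 250 mM, and ribosomal protein genes 25.3% and 22.6%. The pair shared 38 barcode sequences, 0.380% of each library. The labelled cell type was checked against its markers: all 15 core pluripotency genes were above 10 CPM, whereas 12 fibroblast genes, markers of the feeder cells that such cultures can hold, summed to 258 UMIs at 200 mM and 195 at 250 mM, with Col3a1, Lum and Postn at 0 UMIs in both. NS was sequenced more deeply (median 2135 UMIs), and its values and those at 300 mM are given as levels beside the pair, with no ratio.

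Between 200 and 250 mM most genes stood at nearly the same level. Pluripotency genes were higher at 250 mM, with Zfp42 going from 521 to 778 CPM, and genes of cholesterol synthesis, the oxidative folding gene Ero1l and the glucose-responsive gene Txnip were lower. The log2 ratio of CPM, 250 over 200 mM, had a median of 0.04 over the 8763 genes, and the middle 50% ran from -0.14 to 0.22. At 1.5-fold or more, 246 genes (2.81%) were higher and 176 (2.01%) lower, together 422 (4.82%). Because the dose step is small, a smaller step was counted too: 1250 genes (14.3%) were at least 25% higher, 843 (9.62%) were at least 20% lower, which is the same step in the other direction, and 6670 (76.1%) lay between. A 2-fold difference was reached by 16 higher and 17 lower genes.

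Which direction holds more genes depended on the scaling. With CPM, 58.3% of the genes at 1.5-fold were higher, against 48.7% with TMM scaling, 42.4% with median-of-ratios scaling and 37.2% with totals that omit the mitochondrial and ribosomal protein genes. With those smaller totals more genes reached 10 CPM, so 9673 were compared and the gene set differed as well as the scale. Median-of-ratios scaling lowers every log2 ratio by 0.05. Ranges in brackets are exact 95% intervals and cover counting error only, so they say nothing of how much another culture at the same dose would differ. Genes of 10 to 20 CPM, by the higher of the pair, reached 1.5-fold in 8.61% of 2254 cases and those of 100 to 500 CPM in 2.83% of 1378, so small folds of weakly expressed genes carry the widest counting error. A gene under 10 CPM at 1 of the doses was compared only through the other, where it is high, so that its direction is in part set by the filter. Of the genes named here this holds for Fos, Pou3f1, Smad1, Pfkm, Tcstv3 and Usp17lc, which were lower, and for Lefty1, Id3, Spred1, Phlda2, Steap3 and Ddx58, which were higher. The plot of ratio against level shows that spread and where the leading genes lie in it.

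**Figure D1:**
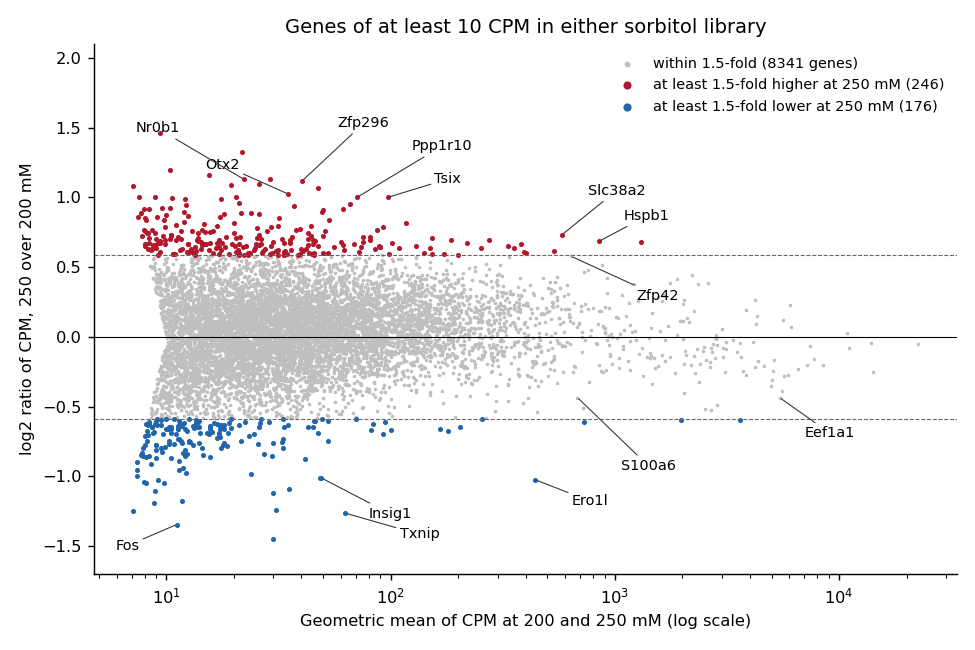
Each point is 1 of the 8763 genes compared; the x axis is the geometric mean of its CPM at 200 and 250 mM (log scale) and the y axis the log2 ratio, 250 over 200 mM, with dashed lines at 1.5-fold. The 246 higher genes are red and the 176 lower genes blue, and Ero1l and Slc38a2 stand out among the more abundant genes.

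The 15 highest ratios were taken in the class of at least 50 CPM at either dose, and they belonged to genes of varied function. Zfp296, a zinc finger gene expressed in pluripotent cells (ENSMUSG00000011267; chromosome 7, 19577287 to 19580656), stood at 54.1 CPM in NS and 27.2, 58.98 and 43.8 CPM at 200, 250 and 300 mM. The 200 mM library was the lowest of the 4, and the log2 ratio of 250 over 200 mM was 1.11 (0.90 to 1.33). Gdf3, a ligand of the transforming growth factor beta family made by pluripotent cells (chromosome 6, 122605403 to 122610087), stood at 55.7 CPM in NS and 32.7, 68.3 and 68.3 CPM at 200, 250 and 300 mM, again lowest at 200 mM, with a log2 ratio of 1.06 (0.87 to 1.27). Ppp1r10, which encodes a nuclear regulatory subunit of protein phosphatase 1, went from 50.1 to 100.3 CPM (log2 interval 0.84 to 1.16) and was at 152 CPM in NS. Tsix, the long non-coding RNA antisense to Xist, went from 68.5 to 137 CPM (log2 interval 0.86 to 1.14), and stood at 75.4 CPM in NS and 154 at 300 mM. Without a stated use of strand, reads of Tsix and of a gene overlapping it cannot be told apart.

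Further down the same ranking the folds were smaller. Ythdc1, a nuclear reader of methylated adenosine in RNA, went from 87.9 to 155 CPM (log2 0.82), and Gtf2f1, the large subunit of the general factor TFIIF, from 70.5 to 122 CPM (0.79). Spen, an RNA-binding repressor that takes part in Xist silencing, went from 66.8 to 114 CPM (0.76), and the splicing factor gene Sf3a2 from 33.4 to 58.1 CPM (0.80). Ino80b, a subunit of the INO80 chromatin remodeller, had a log2 ratio of 0.91, and Hes1, a repressor downstream of Notch, one of 0.84. The long non-coding RNA Dancr (0.95), the small nucleolar RNA host Snhg9 (0.94), the X-linked gene Nexmif (0.91), the epimerase gene Renbp (0.90) and the zinc finger gene Zfp553 (0.77) completed the 15. The counting intervals of all 15 lay above 0.

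The 15 lowest ratios of that expression class were likewise of varied function, and Txnip, Platr31, Ero1l and Insig1 were at least 2-fold lower. Txnip, which encodes a thioredoxin-binding protein that restrains glucose uptake (ENSMUSG00000038393; chromosome 3, 96557957 to 96561883), stood at 33.8 CPM in NS and 97.3, 40.5 and 43.4 CPM at 200, 250 and 300 mM. The 200 mM library stood apart from the other 3, which lay close together, and the log2 ratio of 250 over 200 mM was -1.26 (-1.44 to -1.09). Ero1l, the oxidase that passes disulfide bonds to protein disulfide isomerase in the endoplasmic reticulum (chromosome 14, 45283087 to 45318771), stood at 281 CPM in NS and 631, 310.3 and 339.6 CPM at 200, 250 and 300 mM. It had the same shape at a far higher level, with a log2 ratio of -1.02 (-1.09 to -0.96). Insig1, which holds the sterol sensor of the cholesterol pathway in the endoplasmic reticulum (chromosome 5, 28071363 to 28078662), stood at 41.9 CPM in NS and 69.8, 34.6 and 38.5 CPM at 200, 250 and 300 mM, a log2 ratio of -1.01 (-1.21 to -0.82). Platr31, a long non-coding RNA of stem cells, went from 51.5 to 24.3 CPM (-1.09).

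The rest of the lowest 15 had smaller folds. Ddit3, which encodes the stress factor CHOP, stood at 57.2 CPM in NS and 118, 72.7 and 61.3 CPM at 200, 250 and 300 mM (log2 250 over 200 mM -0.70, -0.84 to -0.56), so the 200 mM library was again the highest of the 4. The sterol enzyme genes Dhcr7 (-0.69) and Msmo1 (-0.67), the glycolytic gene Aldoc (-0.75) and P4ha2 (-0.64), which hydroxylates proline in collagen, were in this group. In Cse1l, Alyref, Eif2s3x, Rnf44 and Dusp1 the level at 300 mM was again close to or above that at 200 mM. Cse1l, the export receptor that returns importin alpha to the cytoplasm, stood at 104 CPM in NS and 256, 164 and 292 CPM at 200, 250 and 300 mM (-0.65). Alyref, an adaptor of messenger RNA export, stood at 119 CPM in NS and 209, 133 and 271 CPM at 200, 250 and 300 mM (-0.66), and Eif2s3x, the gamma subunit of initiation factor eIF2, at 227, 143 and 221 CPM over the 3 doses (-0.67). Rnf44 stood at 103, 65.02 and 126 CPM over the doses (-0.67). The phosphatase gene Dusp1 (-0.65, 56.6 CPM at 300 mM) and the cytochrome oxidase subunit gene Cox6b2 (-0.87) were the others.

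**Figure D2:**
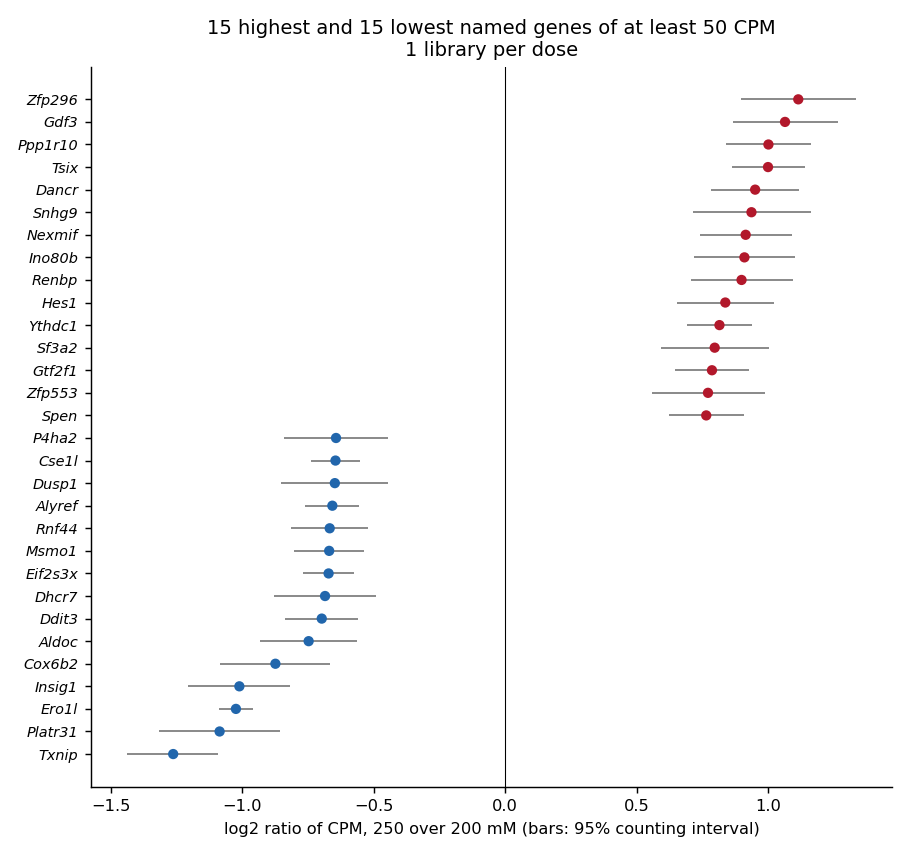
Log2 ratio of CPM, 250 over 200 mM (x axis), for the 15 highest (red) and 15 lowest (blue) named genes of at least 50 CPM, with 95% counting intervals as bars and 1 library per dose. The highest point is Zfp296 at 1.11 and the lowest is Txnip at -1.26, and no interval crosses 0.

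Pluripotency genes were higher at 250 mM. Zfp42, the reporter's own gene (ENSMUSG00000051176; chromosome 8, 43295063 to 43306980), had a log2 ratio of 0.58 (0.53 to 0.63), just under 1.5-fold. Its levels were 562 CPM in NS and 521, 778 and 879 CPM at 200, 250 and 300 mM, so the 250 and 300 mM libraries stood above NS and 200 mM, which were close to each other. Nanog, a core factor of the naive state, stood at 123 CPM in NS and 124, 169 and 133 CPM at 200, 250 and 300 mM (0.45, 0.34 to 0.56). The top value among these libraries was at 250 mM, but ND, without LIF, stood higher at 185 CPM. Zfp42 was at 524 CPM in ND. Pou5f1, which encodes Oct4, stood at 248 CPM in NS and 185, 240.0 and 170.3 CPM at 200, 250 and 300 mM (0.37, 0.28 to 0.46), and was low at 200 and 300 mM alike. Sox2, the partner of Oct4, was nearly level across the doses at 630.2, 674 and 682 CPM (0.10, 0.05 to 0.15).

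The promoter that drives the reporter in this line is that of the gene itself, and the 250 bases before the RefSeq start site (GRCm38.p6, chr8:43307010-43307259, minus strand) are printed because the level of this gene is the marker the line was built on. Capitals mark the 1 match to the CCAAT box (letters CCAAT, searched on both strands, here as ATTGG on the opposite strand).

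Zfp42: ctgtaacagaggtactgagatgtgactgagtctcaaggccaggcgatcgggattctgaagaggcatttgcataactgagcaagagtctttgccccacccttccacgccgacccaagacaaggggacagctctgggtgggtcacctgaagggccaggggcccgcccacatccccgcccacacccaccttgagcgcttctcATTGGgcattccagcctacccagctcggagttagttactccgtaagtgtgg

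The CCAAT letters were present in the windows of 42.1% of the 7045 matched genes of at least 10 CPM, so many genes share this feature. A match describes letters and not a bound site.

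Of 15 core pluripotency genes, all measured, 2 were at least 1.5-fold higher and 0 lower, against 2.81% and 2.01% of all genes, and 8 were at least 25% higher and 0 at least 20% lower, against 14.3% and 9.62%. Their median log2 ratio was 0.37 beside 0.04 for all genes. L1td1, an RNA-binding protein gene of pluripotent cells, went from 265 to 416 CPM (0.65) and Rif1, a telomere and replication timing factor, from 286 to 444 CPM (0.64). The chromatin-bound factor Utf1 followed at 0.55, while Lin28a (-0.19) and the Nodal co-receptor gene Tdgf1 (-0.11) lay below 0. Of 20 measured among 22 naive genes, 4 were 1.5-fold higher and 0 lower, 19 lay above 0 (56.4% of all genes) and the median was 0.23. Nr0b1, which encodes the nuclear receptor Dax1, stood at 23.3 CPM in NS and 14.97, 32.8 and 42.5 CPM at 200, 250 and 300 mM (1.13, 0.84 to 1.43), lowest at 200 mM. Nr5a2, a nuclear receptor that activates Pou5f1, went from 34.3 to 56.6 CPM (0.72), Zfp704 from 33.6 to 54.8 CPM (0.70) and the adhesion gene Jam2 from 49.7 to 76.6 CPM (0.62). Esrrb was at 0.52, Klf5 at 0.40, Klf4 at 0.24 and Klf2 at 0.16, and Mkrn1 (-0.21) alone was below 0.

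**Figure D3:**
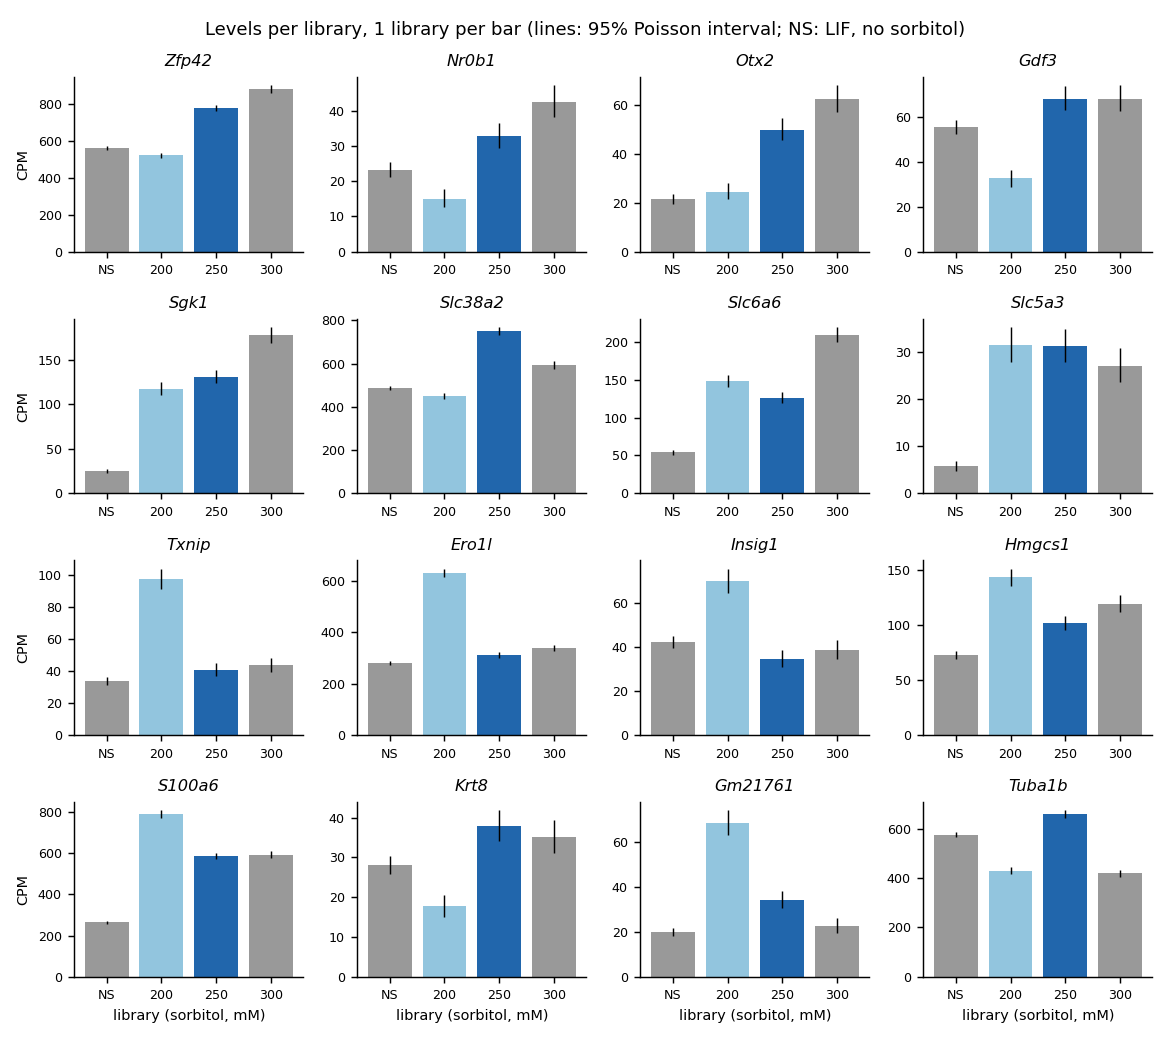
CPM of 16 genes (y axis, from 0, own scale per gene) in NS and in the 200, 250 and 300 mM sorbitol libraries, 1 library per bar, with 95% Poisson intervals of the count as lines; the 2 blue bars are the libraries compared. Zfp42, Nr0b1 and Otx2 step up between 200 and 250 mM, Txnip, Ero1l and Insig1 stand high at 200 mM, and Slc5a3 is level over the doses.

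The genes of the LIF and STAT3 list, which holds receptors and transducers as well as responsive genes, mostly lay slightly below 0. Klf4 (0.24) and Tfcp2l1 (0.11), which also respond to LIF, were counted in the naive list and lay above 0. Of 11 measured among the 13 genes of the LIF and STAT3 list, 10 lay below 0 (43.6% of all genes) and 2 were at least 20% lower (9.62%). In either direction 0 reached 1.5-fold, and the median was -0.13. Socs3, the feedback inhibitor that STAT3 induces, went from 58.04 to 42.9 CPM (-0.44, -0.62 to -0.25) and Stat3 itself from 68.9 to 53.5 CPM (-0.36, -0.53 to -0.19). The receptor genes Lifr (-0.00) and Il6st (-0.02) were level, and Pim1, at 0.03, was the 1 gene above 0.

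Fibroblast growth factor (FGF) signalling acts through the kinase ERK, which switches on immediate early genes within minutes and feedback inhibitors later. Members of both layers are given in turn. The immediate early genes Fos (17.7 to 6.96 CPM, log2 -1.34, -1.77 to -0.93), Egr1 (43.8 to 25.2 CPM, -0.80) and Dusp1 (53.6 to 34.2 CPM, -0.65) were the 3 of 13 measured members at least 1.5-fold lower (2.01% of all genes). The feedback genes Spry2 (17.5 to 32.3 CPM, 0.88, 0.61 to 1.17), Spry4 (0.55), Dusp6 (0.41) and Spred1 (0.33) and the ERK-responsive factor Etv5 (0.42) were the 5 at least 25% higher (14.3%), with Spry2 alone past 1.5-fold. Jun (0.22) and Ier2 (0.19), also immediate early genes, lay above 0, so that layer was not uniform. The list had 16 genes and its measured members a median of 0.19.

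Genes of the step after naive pluripotency were mostly below the 10 CPM needed for comparison. Of 17 formative and primed genes 6 were measured. Among the weaker ones Foxd3 (3.47 to 7.47 CPM, 1.11, 0.49 to 1.75) and Zic5 (6.62 to 9.73 CPM, 0.56, 0.08 to 1.04) lay above 0. Fgf15 (2.71 to 0.82 CPM, -1.73, -3.09 to -0.53) lay below. Otx2, a transcription factor that opens the formative state, stood at 21.5 CPM in NS and 24.5, 49.9 and 62.2 CPM at 200, 250 and 300 mM, with the 2 higher doses above the others (1.02, 0.79 to 1.26). Pou3f1, another factor of that state, went the other way, from 13.2 to 7.88 CPM (-0.75, -1.18 to -0.32), and the DNA methyltransferase genes Dnmt3a (-0.00) and Dnmt3b (0.03) were level. In the Nodal list 10 of 12 genes were measured, with Lefty1 at 9.98 to 15.3 CPM (0.61), Nodal at 0.42, the inhibitor Smad7 at 82.8 to 110.5 CPM (0.42) and Lefty2 at -0.28. Among 7 measured genes of bone morphogenetic protein signalling, the ligand Bmp4 (29.1 to 44.8 CPM, 0.63) and the target Id3 (9.98 to 16.9 CPM, 0.76) were at least 1.5-fold higher (2.81% of all genes). The transducers Smad1 (-0.41) and Smad5 (-0.45) were at least 20% lower (9.62%). Id3 passed the level filter only through the 250 mM library and Smad1 only through the 200 mM library. With median-of-ratios scaling 1 of the 7 was at least 1.5-fold higher. The targets were not uniform. Id2 was level (0.04), and Id1, under 10 CPM at both doses, went the other way (9.55 to 6.14 CPM, -0.64, -1.13 to -0.15). Id4, weaker still, was at -0.82 (-1.75 to 0.07). Of 10 measured Wnt pathway genes 0 reached the smaller step, with Tcf7l1 at 0.30 and Ctnnb1, which encodes beta-catenin, at -0.18.

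The hyperosmotic response list, whose genes read the factor that differs between the cultures, showed no common direction at this step. Of 20 listed genes 16 were measured, of which 2 were at least 1.5-fold higher (2.81% of all genes), 0 lower, 11 above 0 (56.4%) and 5 below, with a median of 0.10. With median-of-ratios scaling the median was 0.05 and 8 genes lay on each side. The transporters of myo-inositol and taurine lay inside the smaller step. The betaine transporter gene Slc6a12 was under 10 CPM at both doses and so not compared. It stood at 3.69 CPM at 200 mM and 7.17 at 250 mM (0.96, 0.35 to 1.59). Slc5a3, which imports myo-inositol, stood at 5.78 CPM in NS and 31.5, 31.2 and 27.01 CPM at 200, 250 and 300 mM (-0.01, -0.25 to 0.23). Slc6a6, which imports taurine, stood at 54.2 CPM in NS and 148, 126 and 209 CPM at 200, 250 and 300 mM and was slightly lower at 250 than at 200 mM (-0.23, -0.34 to -0.12). Akr1b3, the aldose reductase that makes sorbitol inside the cell, stood at 92.1 CPM in NS and 280.3, 289 and 302 CPM at 200, 250 and 300 mM (0.04, -0.03 to 0.12). Slc5a3, Slc6a6 and Akr1b3 were above NS at every dose but did not follow the dose from 200 to 250 mM.

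Regulators of the response showed small differences. Nfat5, the tonicity-responsive transcription factor, stood at 29.9 CPM in NS and 64.00, 74.4 and 92.4 CPM at 200, 250 and 300 mM (0.22, 0.06 to 0.38), and Sgk1, the osmotically induced kinase, at 25.3 CPM in NS and 117, 131 and 177 CPM at 200, 250 and 300 mM (0.16, 0.04 to 0.28). For both the levels followed the order of dose, NS being the lowest. The volume-sensing kinases Wnk1 (392 to 357 CPM, -0.14) and Oxsr1 (41.4 to 41.7 CPM, 0.01) and the chloride co-transporter gene Slc12a2 that they activate (49.2 to 50.7 CPM, 0.04) lay inside the smaller step. Atp1b1, which encodes the beta subunit of the sodium pump, went from 189 to 240.2 CPM (0.35, 0.26 to 0.44), and Fxyd2, which modulates the pump, from 178 to 204 CPM (0.19). The heat shock genes Hspa1b (11.8 to 13.7 CPM, 0.21) and Hspa4l (12.5 to 10.8 CPM, -0.21) had intervals that cross 0, and the water and glycerol channel gene Aqp3 was at 0.23 (0.01 to 0.45).

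The 2 members past 1.5-fold were amino acid transporters. Slc38a2, which imports small neutral amino acids and is induced both by hypertonicity and by amino acid shortage, stood at 488 CPM in NS and 452, 751 and 593 CPM at 200, 250 and 300 mM (0.73, 0.68 to 0.79). Its value at 250 mM was the highest of the 4, and the 200 mM value lay below NS. Slc6a9, the glycine transporter gene, went from 12.4 to 24.6 CPM (0.99, 0.66 to 1.33). Both genes are also known as targets of the amino acid response factor Atf4.

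Genes of sterol and fatty acid synthesis were lower at 250 mM. In this pathway the factors SREBP1 and SREBP2 switch on the enzymes when sterols are scarce, and Insig1, itself one of their targets, restrains them. All 26 listed genes were measured, of which 4 were at least 1.5-fold lower and 0 higher (all genes 2.01% and 2.81%), 12 were at least 20% lower and 0 at least 25% higher (9.62% and 14.3%), and 24 lay below 0 (43.6%), with a median of -0.20. Besides Insig1, Dhcr7 and Msmo1, the fatty acid desaturase gene Scd1 went from 85.9 to 57.1 CPM (-0.59, -0.75 to -0.43). Scd2, a second desaturase, was at -0.58. Hmgcs1, an early enzyme of cholesterol synthesis, stood at 72.8 CPM in NS and 143, 101 and 119 CPM at 200, 250 and 300 mM (-0.50, -0.62 to -0.38).

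The order of the enzymes in the pathway was not the order of the ratios. The later steps Sc5d (-0.42), Lss (-0.41), Cyp51 (-0.36) and the early step Idi1 (-0.38) lay close together. The middle steps Fdps (-0.01), Fdft1 (-0.02) and Sqle (-0.10) were close to level, as was Mvk (-0.03). The 2 genes above 0 were the fatty acid synthase gene Fasn (0.11) and Srebf1 (0.11), and Srebf2, which encodes the main sterol factor, was at -0.15. The whole list summed to 2534 CPM at 200 mM and 2092 CPM at 250 mM.

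Promoter windows, the 250 bases before each RefSeq start site (GRCm38.p6), were matched for 18 of the 26 genes and searched on both strands for the letters TCACNCCAC, a form of the sterol regulatory element, and for CCAAT, the box bound by NF-Y. Hmgcs1 was the 1 gene of the 18 (5.56%) with the sterol element, against 1.28% of the 7045 matched genes of at least 10 CPM. Over all 27025 genes with a window (32851 windows) it was 1.22%. The element was not particular to lower genes. It was also present in 2 of 12 matched naive genes (16.7%), Nr0b1 and Spp1, and in Pkm, all of which lay above 0. CCAAT was present in 15 of the 18 (83.3%), against 42.1% of matched genes and 37.5% of all genes with a window. The Hmgcs1 window (chr13:119690101-119690350, plus strand) is printed because it holds both, with the sterol element in capitals at positions 114 to 122 from the left end and 3 CCAAT boxes, each as ATTGG, also in capitals.

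Hmgcs1: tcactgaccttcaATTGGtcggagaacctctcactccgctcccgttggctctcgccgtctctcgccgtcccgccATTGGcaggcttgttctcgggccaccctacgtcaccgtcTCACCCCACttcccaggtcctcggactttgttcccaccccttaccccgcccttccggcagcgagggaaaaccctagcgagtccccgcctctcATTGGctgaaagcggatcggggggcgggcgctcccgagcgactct

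These matches are letters in a window and not measured binding, and a window without them says nothing of SREBP.

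Genes of glucose breakdown and of the hypoxia response leaned the same way, with Gapdh as an exception. Of 25 genes, all measured, 2 were at least 1.5-fold lower and 0 higher (all genes 2.01% and 2.81%), 7 were at least 20% lower and 1 at least 25% higher (9.62% and 14.3%), 20 lay below 0 (43.6%) and the median was -0.17. Ero1l led the list, followed by the oxygen sensor gene Egln3 (40.6 to 26.9 CPM, -0.59, -0.82 to -0.36). Bnip3, a mitophagy receptor induced by hypoxia, stood at 334 CPM in NS and 352, 243 and 316 CPM at 200, 250 and 300 mM (-0.53, -0.61 to -0.46), lowest at 250 mM. The muscle phosphofructokinase gene Pfkm (-0.52), the glucose transporter gene Slc2a3 (-0.40), Gpi1 (-0.36) and the collagen hydroxylase gene P4ha1 (-0.34) came next. Gapdh, often taken as a constant gene, was the 1 member at least 25% higher (0.42), and Ldhb (0.30), Pkm (0.19) and Aldoa (0.17) lay above 0 as well, so the enzymes of glycolysis divided.

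The letters ACGTG, the core of the hypoxia response element, were present in the windows of 13 of 22 matched genes of this list (59.1%). The share was 26.8% for matched genes of at least 10 CPM and 18.5% for all genes with a window. Counted per window, the shares were 44.1% of the 34 windows of the list, 22.8% for genes of at least 10 CPM and 16.6% of all windows. ACGTG also lies inside CACGTG, the E-box of other factors, where both strands match. The windows were also searched on both strands for the carbohydrate response element, a pair of E-box-like sequences held apart by a short spacer that MondoA and ChREBP bind. It was found in 0.724% of matched genes of at least 10 CPM and 0.326% of all genes with a window. That pattern and ACGTG can overlap. The windows of Bnip3 (chr7:138909507-138909756, minus strand) and Txnip (chr3:96557707-96557956, plus strand) are printed as examples. ACGTG was also present in the windows of other lower genes, such as Egln3, Pfkm and P4ha1, and of Pkm and Aldoa, which lay above 0. Capitals in Bnip3 mark CACGTG, with ACGTG on both strands, and a CCAAT box, and capitals in Txnip mark 2 CCAAT boxes, the first as ATTGG, and then the carbohydrate element at positions 166 to 182.

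Bnip3: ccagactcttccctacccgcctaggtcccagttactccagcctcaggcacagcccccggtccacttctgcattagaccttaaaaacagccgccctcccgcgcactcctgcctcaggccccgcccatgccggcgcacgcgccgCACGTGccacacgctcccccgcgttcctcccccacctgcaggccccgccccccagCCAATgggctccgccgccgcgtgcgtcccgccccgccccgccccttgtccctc

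Txnip: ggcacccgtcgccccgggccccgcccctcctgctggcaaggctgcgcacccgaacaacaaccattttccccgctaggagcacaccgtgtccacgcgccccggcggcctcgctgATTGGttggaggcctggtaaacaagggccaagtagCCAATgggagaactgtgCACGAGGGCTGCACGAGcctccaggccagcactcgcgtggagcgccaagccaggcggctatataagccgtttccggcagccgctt

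Among stress programmes, the lists of amino acid response and of cytosolic protein folding had medians above 0 and that of the endoplasmic reticulum one below 0, each with members on both sides. Of 26 measured among 27 genes of the Atf4 and amino acid response, 2 were at least 1.5-fold higher and 1 lower (all genes 2.81% and 2.01%), 9 were at least 25% higher and 4 at least 20% lower (14.3% and 9.62%), 17 lay above 0 (56.4%), and the median was 0.22. Atf4 itself stood at 179 CPM in NS and 125, 188 and 165 CPM at 200, 250 and 300 mM (0.59, 0.49 to 0.70), lowest at 200 mM, and the cationic amino acid transporter gene Slc7a3 at 70.4 CPM in NS and 114, 173 and 239 CPM at 200, 250 and 300 mM (0.60, 0.49 to 0.71). Slc7a1 (0.47), the transfer RNA synthetase gene Gars (0.45), Sesn2 (0.44), Shmt2 (0.41) and Trib3 (0.41) were above. Ddit3, Cebpb (-0.47), Ddit4 (-0.34) and Psat1 (-0.33) were at least 20% lower, so targets of the same factor lay on both sides. Under median-of-ratios scaling 0 of the list reached 1.5-fold higher.

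Endoplasmic reticulum chaperones had 11 of 17 genes below 0 (43.6% of all genes) and a median of -0.14. The 2 at least 20% lower, a share near the 9.62% of all genes, were Pdia6 (195 to 149 CPM, -0.39, -0.49 to -0.29) and Sdf2l1 (-0.35), and 0 reached 1.5-fold. That number was 3 with TMM scaling, 4 with median-of-ratios scaling and 5 with totals without mitochondrial and ribosomal protein genes. Over all genes it was 978 of 8763, 1092 of 8763 and 1433 of 9673 in the same order. Of the main chaperone genes, Hspa5 (-0.14) lay at that median and Hsp90b1 (-0.28, -0.34 to -0.21) below it. The unfolded protein response factor Xbp1 was at 0.29. Cytosolic heat shock and chaperonin genes had 15 of 19 measured members (20 listed) above 0 (56.4%) and a median of 0.21. Hspb1, a small heat shock protein gene, stood at 556 CPM in NS and 668, 1074 and 839 CPM at 200, 250 and 300 mM (0.68, 0.64 to 0.73), and Hsph1, a nucleotide exchange factor for Hsp70, at 80.2 to 121 CPM (0.60). Those were the 2 members at least 1.5-fold higher, and 0 were lower (2.81% and 2.01% of all genes). With median-of-ratios or TMM scaling, or totals without mitochondrial and ribosomal protein genes, 1 member was 1.5-fold higher. Hspa9, which works in mitochondria, was the lowest at -0.26.

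Proteasome genes were higher with small folds. Of 28 genes, 25 lay above 0 (all genes 56.4%), 10 were at least 25% higher (14.3%) and 0 at least 20% lower (9.62%), and 1 reached 1.5-fold, with a median of 0.21. Psmb5, the catalytic subunit with chymotrypsin-like activity, stood at 199 CPM in NS and 147, 238 and 156 CPM at 200, 250 and 300 mM (0.70, 0.60 to 0.79), and the ATPase ring subunits Psmc5 (0.45) and Psmc3 (0.42) and the ubiquitin receptor Psmd4 (0.41) followed. With median-of-ratios scaling 21 of the 28 lay above 0. Lysosome and autophagy genes, the other route of protein turnover, had 4 of 26 measured members at least 25% higher, close to the 14.3% of all genes, and 0 at least 20% lower. Hexa was at 12.4 to 19.8 CPM (0.68), the regulator Tfeb at 0.51 and the cargo receptor Sqstm1 at 180.1 to 242 CPM (0.42).

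**Figure D4:**
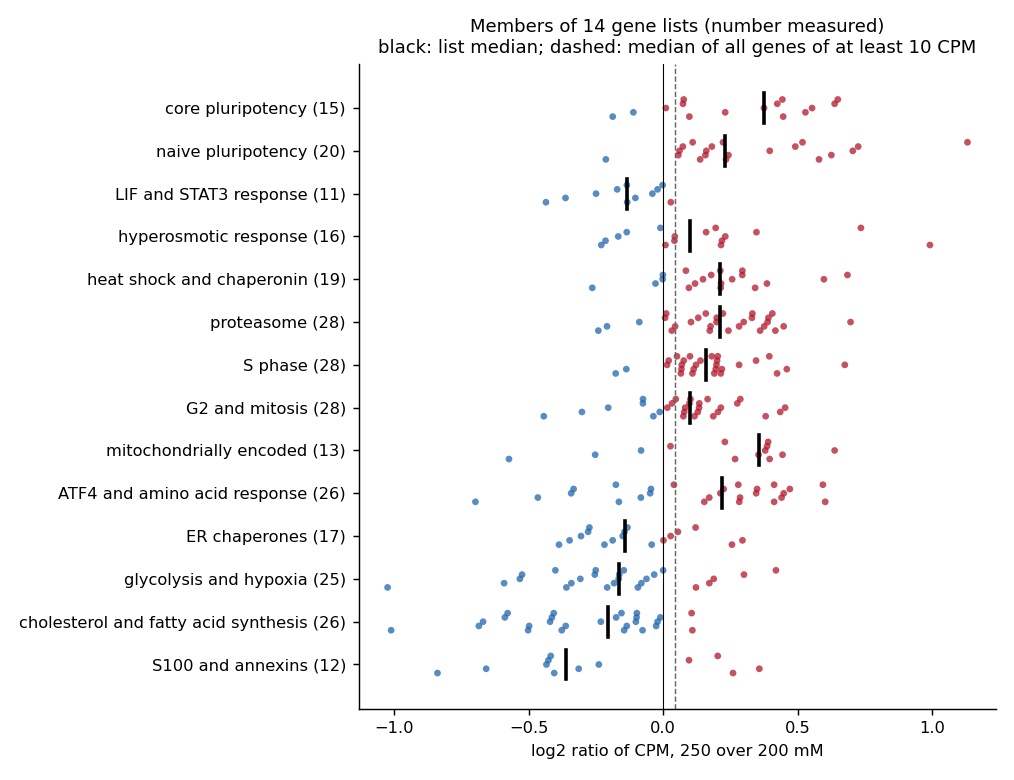
Log2 ratio of CPM, 250 over 200 mM (x axis), for each measured member of 14 gene lists (rows, number measured in brackets), red above and blue below 0, with the list median as a black bar and the median of all 8763 genes (0.04) dashed. Core pluripotency (median 0.37) lies furthest to the right among these medians, and S100 and annexin genes (median -0.36) furthest to the left.

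Cell cycle genes differed little. Of 28 S phase genes 26 lay above 0 (56.4% of all genes), 5 were at least 25% higher, a share near the 14.3% of all genes, and 0 at least 20% lower (median 0.16), led by Mcm7, a subunit of the replicative helicase, at 174 to 277 CPM (0.67, 0.58 to 0.76). Pola1 (0.46) and Mcm3 (0.39) were also at least 25% higher. The 28 genes of G2 and mitosis had 3 members at least 25% higher and 1 at least 20% lower (14.3% and 9.62% of all genes). The anaphase activator Cdc20 was at 0.45 and the centromere histone gene Cenpa at -0.44. Of 14 measured G1 genes, Ccne2, which encodes cyclin E2, went from 21.7 to 36.7 CPM (0.76, 0.50 to 1.01) and was at 60.1 CPM in NS. Among p53 targets 21 of 23 were measured. Phlda3 (28.1 to 42.4 CPM, 0.59) and the death gene Pmaip1 (23.5 to 15.4 CPM, -0.62) were the 2 past 1.5-fold, in opposite directions (2.81% and 2.01% of all genes). With median-of-ratios or TMM scaling, or totals without mitochondrial and ribosomal protein genes, 0 of the list reached 1.5-fold higher. The cell cycle inhibitor gene Cdkn1a was at 0.25.

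Genes of the cytoskeleton were led by alpha and beta tubulins. Of 23 genes, 4 were at least 1.5-fold higher and 0 lower (all genes 2.81% and 2.01%): Tubb4b (301 to 479 CPM, 0.67), Tuba1c (87.8 to 137 CPM, 0.64), Tuba1b (576 CPM in NS and 430.3, 659 and 419.9 CPM at 200, 250 and 300 mM; 0.61, 0.56 to 0.67) and the large scaffold gene Ahnak (35.7 to 56.7 CPM, 0.67). Tubb5, another beta tubulin gene, was level (-0.02), and the tubulin genes are near-identical in their coding parts, so the split between them is uncertain. Actb was at 0.27 and Actg1 at -0.13, whereas Msn, which ties actin to the membrane, was at -0.37, and Lrrc8a, a subunit of the volume-regulated anion channel, at -0.14. Of the linker histone genes, Hist1h1c (116 to 75.97 CPM, -0.61), H1f0 (57.5 to 38.5 CPM, -0.58) and H1fx (124 to 83.7 CPM, -0.56) were lower, while Hist1h1d (0.20) and Hist1h1e (0.20) lay above 0. Histone genes share near-identical copies and are uncertain for that reason.

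Mitochondrially encoded transcripts were not uniform although their summed share hardly differed. Of 13 genes, 7 were at least 25% higher and 1 at least 20% lower (all genes 14.3% and 9.62%), with a median of 0.35. The complex I genes mt-Nd2 (1896 to 2578 CPM, 0.44) and mt-Nd4l (0.40) and the ATP synthase gene mt-Atp8 (203 to 315 CPM, 0.64) were higher. The oxidase gene mt-Co1 was at -0.25, and mt-Nd6, the 1 protein-coding gene on the other strand of that genome, went from 237 to 159 CPM (-0.57, -0.67 to -0.48). Nuclear genes of the respiratory chain had 3 of 25 members at least 25% higher, near the 14.3% of all genes, and 0 at least 20% lower. Ndufv1 was at 0.47. In this list the cytochrome oxidase genes Cox6c (-0.20) and Cox7c (-0.19) lay below 0.

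Ribosomal protein genes were mostly slightly lower relative to all UMIs, and translation factors were not. Of 96 ribosomal protein genes, pseudogene copies included, 75 lay below 0 (43.6% of all genes), with a median of -0.14. Rpl39 (4454 to 2952 CPM, -0.59) and Rpl22l1 (899.7 to 589 CPM, -0.61) were the 2 at least 1.5-fold lower, a share of 2.08% beside 2.01% of all genes. Eef1a1, the elongation factor that brings aminoacyl transfer RNA to the ribosome, went from 6318 to 4674 CPM (-0.43, -0.45 to -0.42). Eif4a2 (-0.41) was also lower, whereas Eif3a (0.37) and Eef1d (0.30) were higher. Of the 24 translation factors listed 14 lay above 0 (56.4% of all genes), with a median of 0.03. Among 32 splicing genes Hnrnpm was at 318 to 484 CPM (0.61), Srsf5 at 0.54 and Srsf3 at 0.53, against Hnrnpa1 at -0.34. Of 14 measured hosts of small nucleolar RNAs, Snhg3 (44.04 to 20.3 CPM, -1.12, -1.37 to -0.87) and Snhg9 lay at opposite ends. Of the 14, 5 were at least 20% lower and 2 at least 25% higher (9.62% and 14.3% of all genes).

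Of calcium-binding S100 and annexin genes 12 of 14 were measured and 8 lay below 0 (43.6% of all genes). Of the 12, 2 were at least 1.5-fold lower and 0 higher (all genes 2.01% and 2.81%), and 6 were at least 20% lower and 1 at least 25% higher (9.62% and 14.3%), with a median of -0.36. S100a6, a small calcium-binding protein gene, stood at 265 CPM in NS and 791, 586 and 594 CPM at 200, 250 and 300 mM (-0.43, -0.48 to -0.38), with all 3 doses above NS and 200 mM the highest. Anxa4, which binds membranes in the presence of calcium, went from 36.4 to 20.4 CPM (-0.84, -1.10 to -0.58) and Anxa11 from 22.8 to 14.4 CPM (-0.66), while S100a11 was at 0.36. Genes of iron and heme had 11 of 13 measured members below 0 (43.6% of all genes), with the heme oxygenase gene Hmox1 at 73.2 to 50.6 CPM (-0.53), the transferrin receptor gene Tfrc at 335 to 263 CPM (-0.35) and the weakly expressed iron reductase gene Steap3 at 5.64 to 10.4 CPM (0.89). Metallothionein Mt1 was at 231 to 182 CPM (-0.34) against 2287 CPM in NS.

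Imprinted, germline and immune genes gave single genes that stood apart rather than a common direction. Of 15 measured imprinted genes Phlda2 (7.38 to 13.5 CPM, 0.87), Snrpn (62.8 to 103 CPM, 0.72) and the antisense transcript Kcnq1ot1 (325 to 493 CPM, 0.60) were at least 1.5-fold higher (2.81% of all genes). Rian (-0.45) and Meg3 (-0.43), non-coding RNAs of 1 imprinted cluster, were at least 20% lower (9.62%). As for Tsix, reads of Kcnq1ot1 and of the gene it overlaps cannot be told apart without a stated use of strand. The meiotic gene Sycp3 went from 27.9 to 16.6 CPM (-0.75, -1.04 to -0.46) and was at 107 CPM in NS. Among 15 measured interferon and innate immune genes the RNA sensor gene Ddx58 was at 6.51 to 10.6 CPM (0.71), and the antigen-presenting gene H2-K1 at 85.9 to 57.6 CPM (-0.58). Gadd45a, a stress gene of the DNA demethylation list, was at 56.4 to 37.2 CPM (-0.60), and Dnmt1, the maintenance methyltransferase gene, at -0.28.

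Most markers of other cell types were under the level needed for comparison, and some of the others were abundant. Trophoblast genes and keratins had 7 of 16 members measured, of which Krt18 (10.3 to 23.04 CPM, 1.16, 0.81 to 1.52) and Krt8 (17.7 to 37.8 CPM, 1.10, 0.83 to 1.37) were 2-fold higher, while the placental cadherin gene Cdh3 (-0.53) and the factor Hand1 (-0.36) were at least 20% lower. The list summed to 294 CPM at 200 mM and 349 at 250 mM, and Tpbpa was at 0 UMIs in both. Of 19 genes of primitive and extraembryonic endoderm 7 were measured, all of them secreted or basement membrane genes. Lama1 (0.54), Apoe (154 to 223 CPM, 0.53) and Sparc (259.7 to 345 CPM, 0.41) were at least 25% higher (14.3% of all genes). The remaining measured members lay inside the smaller step: Col4a2 (0.21), Col4a1 (0.17) and the laminin partners of Lama1, Lamc1 (-0.00) and Lamb1 (-0.05). Of 12 measured epithelial genes the 2 keratins and Spint1 (0.67) reached 1.5-fold higher (2.81% of all genes), but Cdh1 (-0.10) and Epcam (-0.04) were level. Of the mesenchymal list Vim (20.6 to 32.6 CPM, 0.66) and Itga5 (14.4 to 23.7 CPM, 0.71) did, while the more abundant Fn1 (0.01) and Lgals1 (-0.01) were level. In bulk sums such as these, more cells of a kind and more RNA per cell cannot be told apart.

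The spread over barcodes helps to read those genes. If a gene's UMIs were scattered over barcodes by depth alone, the number of barcodes with at least 1 UMI would match the one the library's summed profile gives. That ratio of observed to predicted barcodes was close to 1 for most named genes, for example 0.989 and 0.979 for Txnip at 200 and 250 mM, and 0.97 and 0.974 for Zfp42. It was lower, meaning UMIs gathered in fewer barcodes, for Krt8 (0.897 and 0.746), Krt18 (0.899 and 0.818), Phlda2 (0.856 and 0.747), Platr31 (0.848 and 0.803) and Ero1l (0.922 and 0.897). Krt8 and Krt18 together summed to 28.0 CPM at 200 mM and 60.8 at 250 mM, a log2 ratio of 1.12 (0.91 to 1.34). Their sum was 58.7 CPM in NS and 54.0 at 300 mM, so the 200 mM library was the lowest and 250 mM was close to NS. Both genes were seen together in 14 barcodes at 200 mM, where the profile predicts 1.56, and in 68 at 250 mM, where it predicts 8.23. The 47 barcodes with at least 3 keratin UMIs at 250 mM held 34.2% of the keratin UMIs, against 8 barcodes and 11.6% at 200 mM, and the 68 barcodes were of ordinary depth (median 954 UMIs against 939 for the library). Barcodes were not thinned to 1 depth for these counts, and no doublet caller was run.

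Genes of the two-cell-like state, a rare and passing state of stem cell cultures marked by Zscan4 and Tcstv genes, summed to a lower level at 250 mM. Of 20 genes found in the files 4 reached 10 CPM at either dose, of which Tcstv3 (13.99 to 6.76 CPM, -1.05, -1.50 to -0.61), Usp17lc (13.1 to 6.45 CPM, -1.02) and Gm21761 were at least 1.5-fold lower. The first 2 passed the level filter only through the 200 mM library. Gm21761 stood at 19.7 CPM in NS and 68.3, 33.99 and 22.7 CPM at 200, 250 and 300 mM (-1.01, -1.20 to -0.81), with 200 mM the highest, and its UMIs too sat in fewer barcodes than predicted (0.795 and 0.72). The 19 genes of the list other than the broadly expressed Eif1a summed to 140.2 CPM at 200 mM and 76.6 at 250 mM, 1.83-fold lower, beside 50.2 CPM in NS and 52.8 at 300 mM. Gm21761 alone gave 630 of the 1292 UMIs in that sum at 200 mM and 332 of the 748 at 250 mM. The Zscan4 genes were all under 10 CPM, with Zscan4c at 3.91 to 1.74 CPM (-1.17, -2.09 to -0.30). Zscan4d was at 4.88 to 3.69 CPM (-0.41), with an interval that crosses 0 (-1.08 to 0.26). At least 2 of the 19 genes were seen in 166 barcodes at 200 mM (57.5 predicted) and in 93 at 250 mM (21.03 predicted). Members of these families are near-identical copies, so the level of any single one is uncertain.

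Ratios were spread over the genome. The median per chromosome ran, over the autosomes and X, from -0.00 on chromosomes 9, 12, 13 and X to 0.11 on chromosome 7 and 0.09 on chromosome 17. The other autosomes lay between those ends, and on each autosome and X the middle 50% of genes spanned 0. The 13 mitochondrial genes, described above, and the 1 gene compared on Y (0.45) lay outside that range. Of 30 antisense genes 7 were at least 1.5-fold higher and 3 lower (all genes 2.81% and 2.01%), and of 66 long intergenic non-coding genes 5 and 4. Both classes are small, and antisense counts carry the limit on strand given for Tsix. The plot by chromosome shows how far the medians lie inside the spread of single genes.

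**Figure D5:**
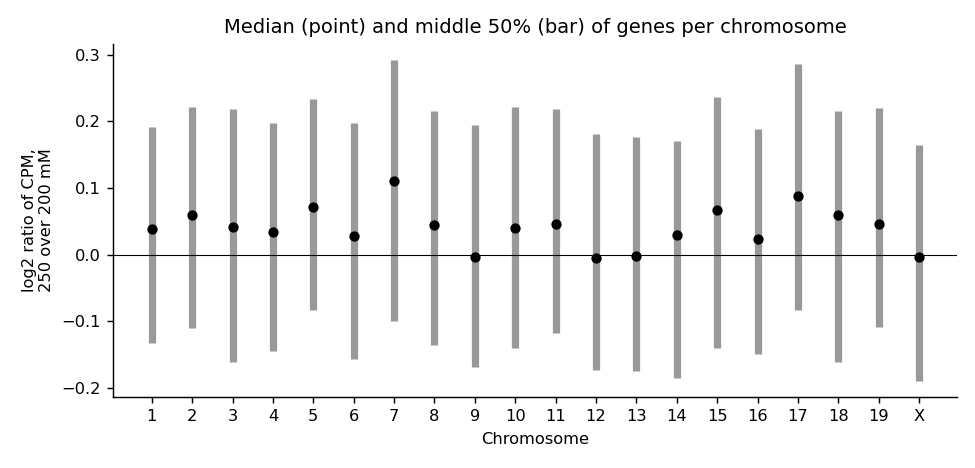
Median log2 ratio of CPM, 250 over 200 mM (points), and its middle 50% (bars) for genes of at least 10 CPM on each mouse chromosome with at least 100 such genes. Chromosome 7 has the highest median, 0.11, and the bars of all chromosomes overlap.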

How the data were processed

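The authors deposited raw UMI counts per gene and barcode, and per the file headers the counting software was Cell Ranger 6.0.1. The submitters' processing notes also list Seurat 4.1.1, R 4.1.2 and mm10 with no role. Trizol and a Lexogen 3' kit stand in the labels' protocol although the matrices are of droplet barcodes, and this was not settled. Not given in the sources used here were the annotation, strand use, multi-mapping and the choice of barcodes. Each library listed 10000 barcodes, and the filter of 500 genes removed 15 at 200 mM. No doublet caller was run.

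UMIs were summed per gene over kept barcodes and scaled to CPM (Python 3.11.15, pandas 2.3.3). Intervals were exact conditional binomial for ratios and exact Poisson for levels (SciPy 1.17.1), at 95%. Genes of at least 10 CPM in either library were compared. Named were the 15 highest and 15 lowest of at least 50 CPM (no mitochondrial, ribosomal protein or unnamed genes), Zfp42, Nanog, Pou5f1, Sox2, the measured hyperosmotic genes and up to 4 leading members of each of 44 lists, in all 204 genes; further list members and ribosomal protein genes were named after their values were seen. The members and lists were chosen with earlier results of these data known. TMM factors came from edgeR 4.0.16 (R 4.3.3). The script was tested on simulated data. Coordinates are GENCODE M21 (mm10), 1-based, and promoters RefSeq GRCm38.p6, found for 154 named genes. Some genes of the lists enter the counts but are not reported here by name.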

Additional observations from a re-analysis of the deposited data

How the results depend on the processing

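Each dose has 1 library, so no library could be left out, and no paired analysis was possible because no result comes from a test and the labels carry no replicate numbers. The number of genes at 1.5-fold moved most with the filter on low values: it was 380 higher and 364 lower at 5 CPM or more (1328 at least 20% lower), 156 and 72 at 20 CPM or more (473 at least 20% lower), and 1458 and 1636 (3475 at least 25% higher, 3517 at least 20% lower) with no filter beyond 3 UMIs. Leaving mitochondrial and ribosomal protein genes out of the totals gave 366 lower genes at 1.5-fold and 1433 at least 20% lower, of 9673 compared, and a Zfp42 ratio of 0.53. The hyperosmotic median (0.10) was 0.0546 with median-of-ratios scaling, 0.0477 with those totals, 0.0353 for barcodes of at least 600 genes, and 0.0427 both at 5 CPM or more and with no filter. The medians of the translation factor and splicing lists, both 0.03, reversed to -0.01584 and -0.01583 with median-of-ratios scaling, which lowers every ratio by 0.05, and to -0.02274 and -0.02273 with those totals. Median-of-ratios scaling also changed the sign of medians that lay within the counting error of their list sums. These were BMP and Id genes (0.0386 to -0.0077), DNA methylation (0.0314 to -0.0149), histones (0.0093 to -0.0370) and primitive streak (0.0282 to -0.0181). Of 1424 values of the 204 named genes under the other scalings and barcode sets, 1404 stayed within the counting interval, 20 moved beyond it and 0 whose interval excluded 0 changed sign. List medians were less stable. Of 128 values under the other scalings, the hyperosmotic list left out, 55 stayed within the counting error of the list sum and 69 moved beyond it. The other 4 reversed, as given above for the translation factor and splicing lists. At these depths 3 UMIs correspond to 0.325 CPM at 200 mM and 0.307 at 250 mM.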

Other observations

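Genes that were 2-fold apart but fell outside the naming rule were picked after their values were seen. Elavl3, an RNA-binding protein gene known from neurons, stood at 23.1 CPM in NS and 49.6, 18.1 and 19.3 CPM at 200, 250 and 300 mM (log2 250 over 200 mM -1.45, -1.71 to -1.20), the lowest ratio of all genes compared, and the 200 mM library stood apart. Dusp27 had the highest ratio, from 5.64 to 15.6 CPM (1.46). Among other weakly expressed genes, those at least 2-fold lower included Cavin1 (17.6 to 7.78 CPM), which coats caveolae, the Wnt antagonist relative Dact3 (13.3 to 5.84 CPM), Maff (11.6 to 5.63 CPM) and the water channel gene Aqp11 (11.4 to 5.53 CPM). Those at least 2-fold higher included H2-M5 (13.7 to 34.2 CPM), Alox12e (13.2 to 28.2 CPM), the zinc exporter gene Slc30a2 (14.4 to 28.98 CPM) and Hoxb9 (4.88 to 10.3 CPM). Of these weakly expressed genes Dusp27, Hoxb9, Cavin1, Dact3, Maff and Aqp11 reached 10 CPM at 1 of the doses only, so that the level filter in part sets their direction. The unnamed gene model Gm42418, which overlaps ribosomal RNA sequence, went from 1028 to 1648 CPM (0.68), and Gm26917, a model of the same kind, from 475 to 642 CPM (0.43).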
